A study of Lepidium sativum with 107 samples.

Results

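The radicle of garden cress (Lepidium sativum) seeds was followed from 3 h of imbibition to 7 h, when the seed coat (testa) was still intact. The comparison set 4 arrays of radicle at 7 h from seeds whose testa had not ruptured (intact 7 h) against 4 arrays of radicle at 3 h, with 4 arrays at 5 h as the midpoint. These 12 arrays were chosen by their sample labels out of 107, and all 13895 probe sets were compared. Seeds at 7 h were sorted by testa state, with ruptured seeds in a separate group, while the 3 h and 5 h labels give no testa state. The intact 7 h group thus holds only seeds that had not ruptured by then. Effects of time and of this sorting cannot be told apart. Each sample pooled 100 excised radicles, cut with the lower part of the hypocotyl, from FR14 seeds imbibed in water at 24 °C in continuous light. The labels name no other genotype and no treatment for any group, and 100 ng of RNA was labelled per array. For comparison, micropylar endosperm (the tissue that covers the tip of the radicle), non-micropylar endosperm and cotyledons had 4 arrays each at 3 h and at 7 h with intact testa. The cotyledon samples pooled 50 organs. The labels do not state whether replicates were independent seed batches, so a p-value covers the spread among arrays, part of which may be technical. That spread was pooled within groups over all 107 arrays, so it can differ from the spread of the radicle arrays compared.

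Cress germinates in separate steps: the embryo takes up water, the testa splits, and the radicle then pushes through the endosperm. Before the testa splits, a radicle changes from stored to newly made transcripts, rebuilds its ribosomes and membranes, and prepares its cell walls for elongation. Storage and desiccation-protection transcripts are made while the seed matures, and many decline after imbibition. Whether the falls given below came from breakdown or from less synthesis was not tested. Gene symbols and roles below are those of the Arabidopsis genes whose locus code keys each probe set, and the cress transcript that bound those probes was measured.

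Levels are log2 values, so a difference of 1 is a doubling. Errors after a level are the SD of 4 arrays. Errors after a difference are limma standard errors from the spread pooled over all 107 arrays. They can be smaller or larger than the SDs of the groups compared would give. A probe set rose, fell or passed where its limma adjusted p was under 0.05. A mean level under 3.59 was taken as not clearly above background, so a difference between 1 level under the limit and 1 over it is written as at least. Where both were under it the difference is no bound.

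Within each of the 3 radicle groups, arrays correlated at r = 0.933 to 0.984 across probe sets, and no 2 arrays held identical values. Replicate 4 at intact 7 h differed from its group mean in the same probe sets as replicates 2 and 4 at 3 h (r = 0.43 and 0.44 across probe sets) and replicate 4 at 5 h (r = 0.40). The other replicates of these groups correlated with it at -0.68 to -0.02. Deviations from a group mean cancel within the group, so these negative values follow in part from the centring and are no separate evidence. Of 9 root and root cap markers, PLT1, PLT2, SHR, SCR and PIN2 were over the brightness limit in radicle at 3 h and at intact 7 h, as all 5 also were in micropylar endosperm at 7 h, and 3 or 4 of the 9 in the other tissues and times. Their list summed to 122 to 154 on the linear scale in the 3 h radicle arrays and 160 to 222 at intact 7 h, against at most 126 in the other tissues at these times. Of the 9, only PIN2 rose in radicle between 3 h and intact 7 h (median 0.03). The higher sum at 7 h is thus not a rise of the whole list. The 5 endosperm markers summed to 61.8 to 70.7 in the 12 radicle arrays and to 259 to 1761 in the micropylar endosperm arrays. By count they did not separate these tissues. In radicle 4 of the 5 were over the limit at 3 h and at 5 h and 3 at intact 7 h, and in micropylar endosperm 4 at 3 h and 3 at 7 h. The 3 seed coat markers did not separate them either, at 61.6 to 90.4 in radicle and 57.9 to 81.8 in micropylar endosperm. The 12 cotyledon and shoot markers did not separate radicle from cotyledon, at 202 to 458 in radicle and 228 to 395 in cotyledon arrays. FIL, TCP2 and TCP10 were over the limit in cotyledons and under it in radicle. With bulk tissue, fewer cells of a type and less RNA per cell cannot be told apart.

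Between 3 h and intact 7 h, 2826 probe sets passed (20.3% of those tested), 1427 higher (10.3%) and 1399 lower (10.1%). Of these, 328 rose and 214 fell by a doubling or more, and the median change of all probe sets was -0.05. The values of the 2 groups did not overlap for 2839 probe sets (20.4%), of which 1973 passed. At 7 h 1398 of the 2839 were higher (10.1%) and 1441 lower (10.4%). With only the arrays of these 2 groups in the fit, 1867 probe sets passed. Listed genes with large rises included XTH16, FER1, SUS1, SIP2;1, HRE2, SUS4, PGB1, XTH4, ADH1 and TUA4, of wall remodelling, iron storage, sucrose cleavage, water transport, the low-oxygen response and microtubules. Those with large falls included SESA5, CRA1, EM1, XERO2, XERO1, TIP3;1, ZAT12 and CYP707A3, described in their groups below. Counts of risers and fallers in each list below are to be read against the shares of 10.3% and 10.1%.

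The largest rise among listed genes was in a wall remodelling enzyme. XTH16 (AT3G23730) is a xyloglucan endotransglucosylase, an enzyme that cuts and rejoins the xyloglucan chains that tie cellulose together. Its 4 arrays read 3.32, 3.74, 4.17 and 3.29 at 3 h, 3.37, 5.36, 5.42 and 3.86 at 5 h, and 6.48, 6.76, 7.07 and 6.79 at intact 7 h. All 7 h arrays were above all earlier ones, and the 5 h arrays fell into a low and a high pair. The rise was 8.85-fold (3.15 ± 0.35 on the log2 scale, adjusted p = 1.6e-11). XTH4 (AT2G06850) read 3.81, 3.72, 3.77 and 3.49 at 3 h and 5.59, 5.76, 6.02 and 5.67 at 7 h, groups far apart compared with their spread. It rose 4.18-fold (2.06 ± 0.21, adjusted p = 6.3e-13).

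Of 24 xyloglucan endotransglucosylases measured, 5 rose and none fell (median 0.10), the others being XTH5 (AT5G13870, 1.2 ± 0.25), XTH8 (AT1G11545, at least 1.09 ± 0.31) and XTH9 (AT4G03210, 0.76 ± 0.28). The XTH9 call held in only 1 of 8 fits that left out 1 array, the one without replicate 2 at 7 h (0.66 to 0.85 over all 8). Only 12 of the 24 were over the brightness limit in any of the 3 radicle groups. Expansins, which loosen walls without cutting chains, moved little: of 23 measured, EXPA13 (AT3G03220) rose by 0.70 ± 0.14, EXPA8 (AT2G40610) and EXPB3 (AT4G28250) fell by 0.88 ± 0.24 and 0.57 ± 0.17, and 20 did not pass (median -0.09). EXPB3 did not pass without replicate 3 at 3 h or replicate 3 at 7 h, its value ranging from -0.74 to -0.34 over the 8 fits that left out 1 array. EXPA1 (AT1G69530), a bright member, was at 5.66 ± 0.20 at 3 h and 5.41 ± 0.10 at 7 h and did not pass (adjusted p = 0.47). One of 10 pectin methylesterases passed, PME31 (AT3G29090), which fell from 5.10 ± 0.27 to 3.94 ± 0.34, and the count was 2 without replicate 2 or 4 at 3 h.

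Genes for cellulose synthesis had a median change of 0.40, with 3 of 10 measured rising and none falling. CESA3 (AT5G05170), a catalytic subunit of the cellulose synthase of growing walls, read 5.46, 5.09, 5.42 and 5.33 at 3 h and 6.48, 5.94, 6.26 and 6.71 at 7 h. The groups did not overlap, and the difference was 1.02 ± 0.21 (adjusted p = 0.00011). CSI1 (AT2G22125), which links the synthase to microtubules, rose by 1.14 ± 0.30, and KOR1 (AT5G49720), a membrane glucanase needed for cellulose deposition, by 0.87 ± 0.21. CESA1 (AT4G32410) was 0.41 ± 0.20 higher and did not pass.

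Among 11 tubulins, the subunits of microtubules, 5 rose and 1 fell (median 0.29). TUA4 (AT1G04820) read 6.57, 7.97, 7.24 and 7.57 at 3 h and 9.31, 8.79, 8.78 and 10.15 at 7 h, without overlap, a 3.79-fold rise (1.92 ± 0.38, adjusted p = 7.4e-05). Replicate 4 was the highest 7 h array. TUA2 (AT1G50010) rose by 1.26 ± 0.21, TUB4 (AT5G44340) by 1.21 ± 0.24 and TUB1 (AT1G75780) by at least 0.60 ± 0.15. TUA1 (AT1G64740) fell by 0.41 ± 0.15, and of the 8 fits that left out 1 array its call held only without replicate 2 at 3 h or replicate 2 at 7 h (-0.50 to -0.36). Tubulin copies are close in sequence, so probes may bind more than 1 of them and single members are uncertain.

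**Figure D1:**
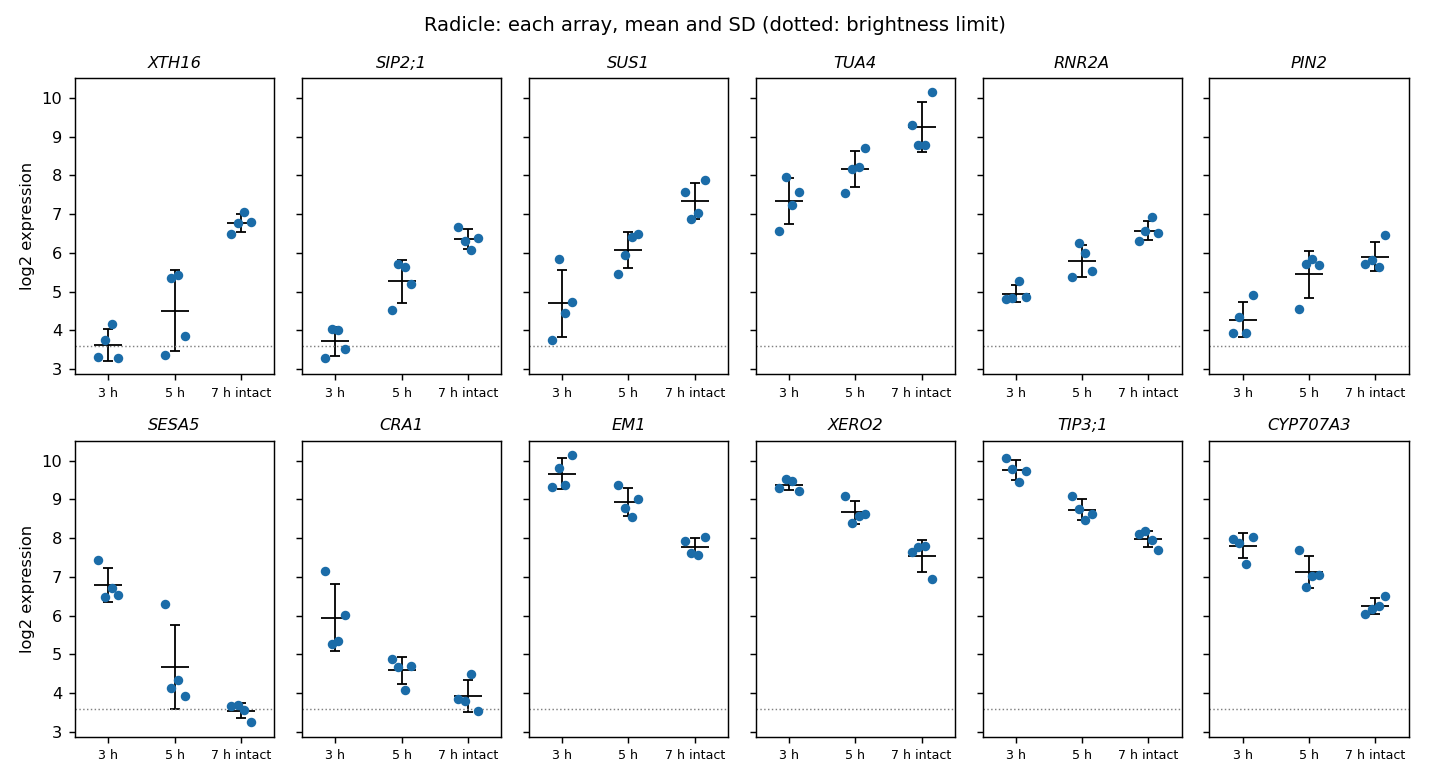
Log2 expression of 12 genes in each radicle array (points) at 3 h, 5 h and intact 7 h, with mean and SD of 4 arrays (bars) and the brightness limit of 3.59 (dotted). The upper 6 genes are higher in every 7 h array than in every 3 h array, the lower 6 are lower, and SESA5 and XTH16 spread most at 5 h.

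Pumps and channels of membranes followed. Proton pumps acidify walls and vacuoles, and 4 of 12 measured rose with none falling (median 0.41). AHA1 (AT2G18960), a plasma membrane proton pump, was at 5.05 ± 0.43 at 3 h and 5.99 ± 0.49 at 7 h (0.94 ± 0.29, adjusted p = 0.012), with overlap between the groups. DET3 (AT1G12840), a subunit of the vacuolar pump, rose by 0.64 ± 0.17 with no overlap. Only 1 of the 12 passed when replicate 4 at 7 h or replicate 3 at 3 h was left out, and 2 without replicate 1 at 7 h. AHA1 itself did not pass in these 3 fits, its value staying between 0.78 and 1.12 over the 8 fits that left out 1 array.

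Of 22 measured aquaporins, or water channels, 2 rose and 3 fell, shares near those of all probe sets. SIP2;1 (AT3G56950), a small channel of internal membranes, read 3.29, 4.04, 4.00 and 3.52 at 3 h, 4.52, 5.72, 5.65 and 5.19 at 5 h, and 6.67, 6.31, 6.07 and 6.38 at 7 h. The 3 time points did not overlap at all, and the rise was 6.25-fold (2.64 ± 0.23, adjusted p = 1.1e-15). PIP2;1 (AT3G53420), a plasma membrane water channel, rose by 0.63 ± 0.14. TIP3;1 (AT1G73190), the water channel of the protein storage vacuole, read 10.07, 9.78, 9.44 and 9.73 at 3 h and 8.10, 8.18, 7.96 and 7.70 at 7 h. It fell without overlap (-1.77 ± 0.25, adjusted p = 2.9e-08). TIP3;2 (AT1G17810), its close relative, fell by 0.76 ± 0.20 and PIP1;2 (AT2G45960) by 0.46 ± 0.16, a call that held only without replicate 3 at 3 h or replicate 4 at 7 h among the 8 fits that left out 1 array (-0.53 to -0.36). TIP1;1 (AT2G36830), the main channel of growing vacuoles in Arabidopsis, was dim at 3.58 and 3.54 and did not pass.

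Sucrose cleavage rose steeply in 2 of its genes. SUS1 (AT5G20830) and SUS4 (AT3G43190) encode sucrose synthases, which split sucrose with UDP and so feed UDP-glucose to walls and respiration. SUS1 read 3.76, 5.85, 4.44 and 4.74 at 3 h, 5.47, 5.95, 6.41 and 6.48 at 5 h, and 7.58, 6.88, 7.03 and 7.87 at 7 h. Every 7 h array exceeded every 5 h and 3 h array, and SUS1 was 6.24-fold higher at 7 h than at 3 h (2.64 ± 0.25, adjusted p = 1.8e-14). SUS4 went from 4.33 ± 0.12 through 5.53 ± 0.59 to 6.79 ± 0.40, a 5.49-fold rise (2.46 ± 0.26, adjusted p = 3.1e-12). These 2 genes are close copies, so probes may share signal. CWINV2 (AT3G52600), a cell wall invertase, the other kind of sucrose-splitting enzyme, fell from 5.06 ± 0.68 to 3.90 ± 0.21 (-1.15 ± 0.20). GOLS1 (AT2G47180), which starts the synthesis of raffinose sugars, fell by 0.78 ± 0.27 but did not pass in 4 of the 8 fits that left out 1 array (without replicates 1, 2 or 3 at 3 h or replicate 3 at 7 h, -0.94 to -0.68 over all 8). In all, 2 of 15 genes of sucrose and raffinose metabolism rose and 3 fell, against 10.3% and 10.1% of all probe sets. The count of 5 dropped to 3 without replicate 2 at 3 h.

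Of 17 genes of beta-oxidation and the glyoxylate cycle, which break down storage oil, 2 rose and 2 fell (median 0.01), shares near those of all probe sets. ACX2 (AT5G65110), an acyl-CoA oxidase for long chains, read 3.77, 4.05, 3.46 and 3.92 at 3 h and 5.09, 5.03, 5.13 and 5.06 at 7 h. It rose without overlap (1.28 ± 0.17, adjusted p = 1.5e-08). The 2 enzymes particular to the glyoxylate cycle went opposite ways: MLS (AT5G03860), malate synthase, rose by at least 0.83 ± 0.16 to 4.02 ± 0.23, and ICL (AT3G21720), isocitrate lyase, fell from 7.36 ± 0.47 to 6.59 ± 0.22. PCK1 (AT4G37870), which turns the products towards sugar, was lowest at 5 h, at 6.19 ± 0.28, against 7.15 ± 0.33 at 3 h and 6.65 ± 0.39 at 7 h. Its fall of 0.50 ± 0.17 by 7 h did not pass without replicate 1, 2 or 4 at 3 h or replicate 1, 2 or 3 at 7 h (-0.69 to -0.38 over the 8 fits).

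Genes of the low-oxygen response were examined after the largest changes had been seen, so their list was chosen on these values and has no test of its own. Plant cells short of oxygen stabilise a group of ethylene response factors that switch on fermentation, sucrose synthase and oxygen-sensing enzymes. Of 21 such genes measured, 14 rose, 1 fell and 6 did not pass, with a median change of 0.94. HRE2 (AT2G47520), one of those factors, read 5.35, 6.11, 6.78 and 5.68 at 3 h, 7.24, 8.15, 8.42 and 7.69 at 5 h, and 8.62, 8.60, 8.34 and 8.43 at 7 h. All 5 h and 7 h arrays were above all 3 h arrays, and 7 h was 5.73-fold over 3 h (2.52 ± 0.20, adjusted p = 5.7e-17). At 1 h it had been at 3.26 ± 0.09, under the brightness limit.

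ADH1 (AT1G77120), alcohol dehydrogenase of the fermentation pathway, read 6.73, 7.02, 5.64 and 7.17 at 3 h, 5.90, 7.11, 7.65 and 7.21 at 5 h, and 8.77, 8.15, 8.31 and 9.29 at 7 h. Its 3 h and 5 h arrays overlapped and its 7 h arrays stood above both (1.99 ± 0.24, adjusted p = 6.2e-10). PDC1 (AT4G33070), pyruvate decarboxylase, the step before it, rose by at least 1.67 ± 0.21 to 4.87 ± 0.14. PGB1 (AT2G16060), a haemoglobin that removes nitric oxide, rose by 2.11 ± 0.27, HUP54 (AT4G27450) by 1.77 ± 0.20 and PFK6 (AT4G32840), a phosphofructokinase of glycolysis, by 1.60 ± 0.18. PCO1 (AT5G15120) and PCO2 (AT5G39890), enzymes that sense oxygen by oxidising those factors, rose by 0.91 ± 0.18 and 0.68 ± 0.18. HRE1 (AT1G72360), a second such factor, fell by 0.55 ± 0.17, and did not pass without replicate 1 or 2 at 3 h (-0.68 to -0.41 over the 8 fits). LDH1, HRA1, ACO1, SRO5, HRU1 and UKL3 lay between -0.28 and 0.48 and did not pass.

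**Figure D2:**
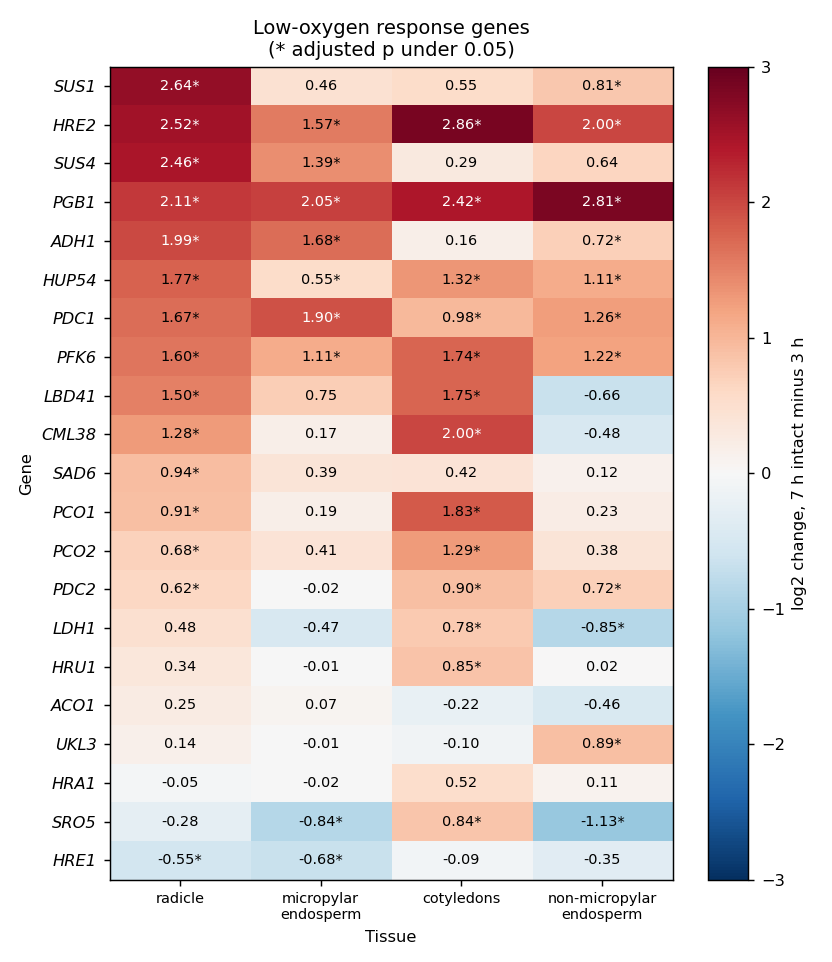
Log2 change from 3 h to intact 7 h of 21 low-oxygen response genes (rows, a list chosen after the values were seen) in 4 tissues (columns), with an asterisk where the adjusted p was under 0.05. In radicle 14 rose, SUS1 reached 2.64 in radicle against 0.46 to 0.81 in the other tissues, and PGB1 passed in all 4 tissues.

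The 4 ferritins, iron-storing proteins, were also looked at after their values had been seen. FER1 (AT5G01600), the leaf-type ferritin that responds to iron in Arabidopsis, read 4.98, 5.24, 5.19 and 5.56 at 3 h, 5.27, 6.21, 6.21 and 5.48 at 5 h, and 7.68, 7.56, 7.77 and 8.86 at 7 h. It stood 6.61-fold higher at 7 h (2.73 ± 0.38, adjusted p = 3.6e-08), with replicate 4 the highest array. FER2 (AT3G11050), the seed ferritin, fell from 6.87 ± 0.45 to 5.59 ± 0.31 (-1.28 ± 0.22, adjusted p = 2.8e-06). FER3 and FER4 were at 0.41 and -0.14 and did not pass.

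Seed storage and oil body transcripts fell. Of 14 measured, 7 fell and none rose (median -0.42), and 10 were over the brightness limit in any of the 3 radicle groups. SESA5 (AT5G54740), a 2S albumin, read 7.44, 6.48, 6.72 and 6.54 at 3 h, 6.30, 4.13, 4.33 and 3.93 at 5 h, and 3.66, 3.68, 3.57 and 3.27 at 7 h. Replicate 1 at 5 h lay near the 3 h arrays and its other 3 arrays near those of 7 h. The fall was at least 9.50-fold (3.25 on the log2 scale ± 0.36, adjusted p = 1.4e-11). CRA1 (AT5G44120), a 12S globulin, read 7.16, 5.27, 5.35 and 6.01 at 3 h and 3.84, 3.80, 4.49 and 3.53 at 7 h, without overlap (-2.04 ± 0.24, adjusted p = 1.4e-10). OLEO1 (AT4G25140), the main oleosin that coats oil bodies, fell by at least 1.56 ± 0.22, OLEO5 (AT3G01570) by 1.23 ± 0.24, OLEO4 (AT3G27660) by 1.19 ± 0.21 and CLO2 (AT5G55240), a caleosin, by 1.16 ± 0.29, a call lost on the 8 arrays of the comparison fitted alone. PAP85 (AT3G22640), a vicilin-like protein, fell by 0.48 ± 0.14. The other 7 were between 3.00 and 3.84 at 3 h, close to the brightness limit or under it.

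Late embryogenesis abundant proteins and dehydrins, which protect membranes and proteins in the dry seed, fell in 9 of 20 cases and rose in none (median -0.37). EM1 (AT3G51810) read 9.33, 9.81, 9.37 and 10.16 at 3 h and 7.91, 7.62, 7.56 and 8.02 at 7 h (-1.89 ± 0.33, adjusted p = 8.7e-06). XERO2 (AT3G50970) fell from 9.38 ± 0.14 to 7.54 ± 0.40 and XERO1 (AT3G50980) from 8.03 ± 0.29 to 6.25 ± 0.40. RAB18 (AT5G66400) was the brightest of those named, at 10.39 ± 0.09 at 3 h, and was still at 8.90 ± 0.19 at 7 h. In none of these 4 genes did the 3 h and 7 h arrays overlap. LEA4-5 (AT5G06760) fell by at least 1.38 ± 0.18. On the 8 arrays of the comparison fitted alone, 5 of the 20 passed. PER1 (AT1G48130), a peroxiredoxin of dry seeds, fell by 0.95 ± 0.26.

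Of 10 regulators of seed maturation, EEL (AT2G41070), a bZIP factor acting on Em genes, fell by 0.65 ± 0.20 and bZIP25 (AT3G54620) rose by 0.32 ± 0.12. EEL did not pass without replicate 4 at 3 h (-0.75 to -0.52 over the 8 fits). The bZIP25 call was lost in 5 of the 8, those without replicate 1 or 4 at 3 h or replicate 1, 2 or 3 at 7 h (0.24 to 0.38). ABI3 (AT3G24650), a master regulator of maturation, was at 4.88 ± 0.48 and 4.96 ± 0.33, and ABI5 (AT2G36270), which acts with it in abscisic acid (ABA) signalling, at 5.24 ± 0.17 and 4.99 ± 0.10. Neither passed (adjusted p = 0.84 and 0.33).

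Enzymes that break down ABA, the hormone that keeps seeds dormant, fell from a high level. CYP707A3 (AT5G45340), an ABA 8'-hydroxylase, was at 3.55 ± 0.15 at 1 h and read 7.99, 7.88, 7.34 and 8.03 at 3 h, 7.71, 6.73, 7.03 and 7.06 at 5 h, and 6.03, 6.17, 6.26 and 6.51 at 7 h. It thus peaked among these stages at 3 h and fell 2.96-fold by 7 h without overlap (-1.57 ± 0.27, adjusted p = 5.5e-06). CYP707A1 (AT4G19230) fell by 0.85 ± 0.23, and CYP707A2 (AT2G29090) was 0.53 lower and did not pass (adjusted p = 0.15). NCED9 (AT1G78390), which makes the ABA precursor in seeds, fell by at least 0.57 ± 0.11, while ABA2 (AT1G52340), a later step of synthesis, rose by 0.75 ± 0.19, a call lost on the 8 arrays fitted alone. Of 9 ABA metabolism genes, 1 rose and 3 fell, against 10.3% and 10.1% of all probe sets.

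In ABA signalling 3 of 22 rose and 3 fell, shares near the 10.3% and 10.1% of all probe sets. SnRK2.3 (AT5G66880), one of the kinases that carry the ABA signal, fell from 8.08 ± 0.33 to 7.34 ± 0.24. SnRK2.2 (AT3G50500), its near copy, rose from 4.95 ± 0.34 to 5.57 ± 0.14. For both the 3 h and 7 h arrays did not overlap (adjusted p = 0.0039 and 0.0058). The receptor PYL1 (AT5G46790) fell by 0.63 ± 0.20, a call lost without replicate 2 at 3 h, and HAB1 (AT1G72770), a phosphatase that holds those kinases off, rose by 0.51 ± 0.15, lost without replicate 1 or 2 at 3 h. The values over the 8 fits were -0.77 to -0.56 for PYL1 and 0.39 to 0.71 for HAB1.

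No gene of gibberellin metabolism passed in limma among 11, and 0 had an unadjusted p under 0.05 (median of the list -0.10). GA3ox1 (AT1G15550) and GA3ox2 (AT1G80340), which make active gibberellin, were at 3.89 ± 0.03 and 3.80 ± 0.43 at 3 h and at 4.00 ± 0.21 and 3.58 ± 0.11 at 7 h. RGL3 (AT5G17490), a DELLA repressor of gibberellin responses, rose from under the brightness limit to 4.35 ± 0.39 (at least 1.16 ± 0.20, adjusted p = 6.6e-06). GASA3 (AT4G09600), a small gibberellin-regulated peptide, fell by at least 0.66 ± 0.14. RGL2 (AT3G03450), the main DELLA protein of seed dormancy, was bright throughout and did not pass between 3 h and 7 h (0.18 ± 0.20). None of 21 ethylene genes passed in limma, 4 having an unadjusted p under 0.05. Of these 21, 3 passed without replicate 2 at 3 h, and 1 passed without replicate 4 at 3 h or replicate 2 at 7 h. Of 15 brassinosteroid genes DWF7 (AT3G02580), a sterol desaturase, rose by at least 0.66 ± 0.13.

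Of 26 auxin response genes 2 rose and 2 fell, not more than the shares of all probe sets: the repressors IAA9 (AT5G65670, 0.94 ± 0.18) and IAA4 (AT5G43700, 0.52 ± 0.13) were higher, and GH3.6 (AT5G54510), which conjugates auxin, and AFB3 (AT1G12820), an auxin receptor, were lower by 0.70 ± 0.17 and 0.74 ± 0.20. PIN2 (AT5G57090), which carries auxin shootward in root epidermis, read 3.93, 4.36, 3.93 and 4.90 at 3 h, 4.55, 5.71, 5.83 and 5.69 at 5 h, and 5.71, 5.82, 5.64 and 6.46 at 7 h. Groups at 3 h and 7 h did not overlap, and PIN2 rose 3.09-fold (1.63 ± 0.28, adjusted p = 7.1e-06). It was 1.17 higher at 5 h than at 3 h, which passed, and a further 0.46 higher at 7 h, which did not. PLT2 (AT1G51190), a factor that sets the root meristem, was at 4.22 ± 0.42 and 4.14 ± 0.25 and did not pass. In the list of 25 root identity and auxin transport genes, 2 rose and 1 fell, again not above those shares.

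Genes of DNA synthesis rose in part. RNR2A (AT3G23580), a subunit of the enzyme that makes deoxynucleotides, read 4.80, 4.84, 5.27 and 4.87 at 3 h, 5.39, 6.26, 5.99 and 5.53 at 5 h, and 6.31, 6.57, 6.92 and 6.50 at 7 h. The 3 time points did not overlap, and it rose 3.1-fold (1.63 ± 0.20, adjusted p = 9.9e-10). PCNA2 (AT2G29570), the sliding clamp of DNA polymerase, rose by 1.01 ± 0.24. In the list of 18, 5 rose and CDT1A (AT2G31270) fell by at least 0.32 ± 0.11, a call that held only without replicate 3 at 7 h among the 8 fits that left out 1 array (-0.33 to -0.30). Without replicate 4 at 7 h, which had the highest MCM4 (AT2G16440) and RNR1 (AT2G21790) of its group, 2 of the 6 passed, and without replicate 1 at 3 h 3 did. MCM2 (AT1G44900), a helicase subunit, was under the brightness limit in all 3 groups. Of 16 cyclins and cyclin-dependent kinases 2 passed as higher, CYCD4;1 with both levels under the brightness limit, and 1 fell, and the brightest of these, CYCD2;1 (AT2G22490), was 0.75 ± 0.21 higher, a call lost without replicate 1 at 3 h (0.61 to 0.83 over the 8 fits). Without replicate 1 at 3 h or replicate 3 at 7 h 1 of the 16 passed. The shares of all probe sets were 10.3% higher and 10.1% lower.

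Some genes of protein synthesis and breakdown rose, while most did not pass. Of 54 cytosolic ribosomal proteins, 11 rose and 1 fell, with a median of 0.28. RPS7A (AT1G48830) read 6.39, 5.89, 5.77 and 5.87 at 3 h and 7.09, 7.44, 7.56 and 7.30 at 7 h, without overlap (1.37 ± 0.17, adjusted p = 1.2e-09). RPS7C (AT5G16130) rose by 0.85 ± 0.23 and RPS4A (AT2G17360) by 0.81 ± 0.17. Copies of a ribosomal protein gene can share probes, so single members are uncertain. Of 23 ribosome biogenesis genes 6 rose and none fell (median 0.23), BOP1 (AT2G40360), a factor of large subunit assembly, by 0.61 ± 0.14. That count was 3 without replicate 4 at 7 h or replicate 3 at 3 h.

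The 26S proteasome, which degrades tagged proteins, had 10 of 28 subunits rising and none falling (median 0.28). PBG1 (AT1G56450), a core subunit, read 4.82, 5.17, 5.36 and 4.60 at 3 h and 5.75, 6.14, 6.62 and 6.15 at 7 h, without overlap (1.18 ± 0.19, adjusted p = 1.7e-06). RPT4A (AT5G43010), an ATPase of the cap, rose by 0.79 ± 0.17. The count was 5 without replicate 1 at 3 h, and 6 without replicate 3 at 3 h, replicate 3 at 7 h or replicate 4 at 7 h. Of 8 vacuolar processing enzymes and proteases, RD19 (AT4G39090), a cysteine protease, rose by 0.98 ± 0.20, and gammaVPE (AT4G32940) fell by 0.58 ± 0.16, a call lost without the replicate 4 arrays of the 3 radicle groups.

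Stress and defence lists were mixed. HSP15.7 (AT5G37670), a small heat shock protein of peroxisomes, read 4.34, 4.90, 4.52 and 4.79 at 3 h, 6.27, 6.04, 6.47 and 5.83 at 5 h, and 5.60, 6.22, 6.11 and 4.93 at 7 h. All later arrays exceeded the 3 h arrays, though replicate 4 at 7 h did so by little (1.08 ± 0.26, adjusted p = 0.0012). Of 21 heat shock genes 3 rose and 1 fell, against 10.3% and 10.1% of all probe sets. The total of 4 became 2 without replicate 4 at 7 h. APX1 (AT1G07890), a cytosolic ascorbate peroxidase, rose by 1.16 ± 0.21 and CSD2 (AT2G28190), a superoxide dismutase of plastids, fell by 0.75 ± 0.17. OPR3 (AT2G06050), an enzyme of jasmonate synthesis, rose by 1.22 ± 0.24, while ZAT12 (AT5G59820), a zinc finger factor of stress responses, fell from 7.15 ± 0.28 to 5.49 ± 0.58 (-1.66 ± 0.30, adjusted p = 1.0e-05). SOM (AT1G03790), a negative regulator of germination that acts below the light receptor, rose by 0.76 ± 0.19, also lost on the 8 arrays alone. Of 24 photosynthesis genes 2 fell and none rose.

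Of 47 probe sets keyed by a mitochondrial locus, 29 fell, none rose and 18 did not pass, with a median change of -0.86. ATMG00520, which fell furthest of the 47, read 8.34, 7.50, 7.26 and 8.15 at 3 h, 7.29, 6.05, 5.53 and 6.69 at 5 h, and 4.33, 5.36, 5.20 and 4.15 at 7 h. It fell without overlap (-3.05 ± 0.29, adjusted p = 3.4e-14). The median level of the 47 loci was 4.55 to 5.11 in the 3 h arrays and 3.81 to 4.17 in the 7 h arrays. Of the 47, 37 were over the brightness limit in any of the 3 radicle groups. Over the same hours 29 of the 47 fell in micropylar endosperm, 22 in cotyledons and 35 in non-micropylar endosperm. Of all probe sets 14.1%, 6.97% and 15.9% fell in these tissues. Labelling used a 3' in vitro transcription kit, and how it captures mitochondrial transcripts was not tested.

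Among loci in none of the lists above, AT4G33560 rose by 3.42 ± 0.26, AT5G62350 rose by 3.11 ± 0.29 and AT3G22490 fell by 3.15 ± 0.24. The files do not pair these codes with names.

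**Figure D3:**
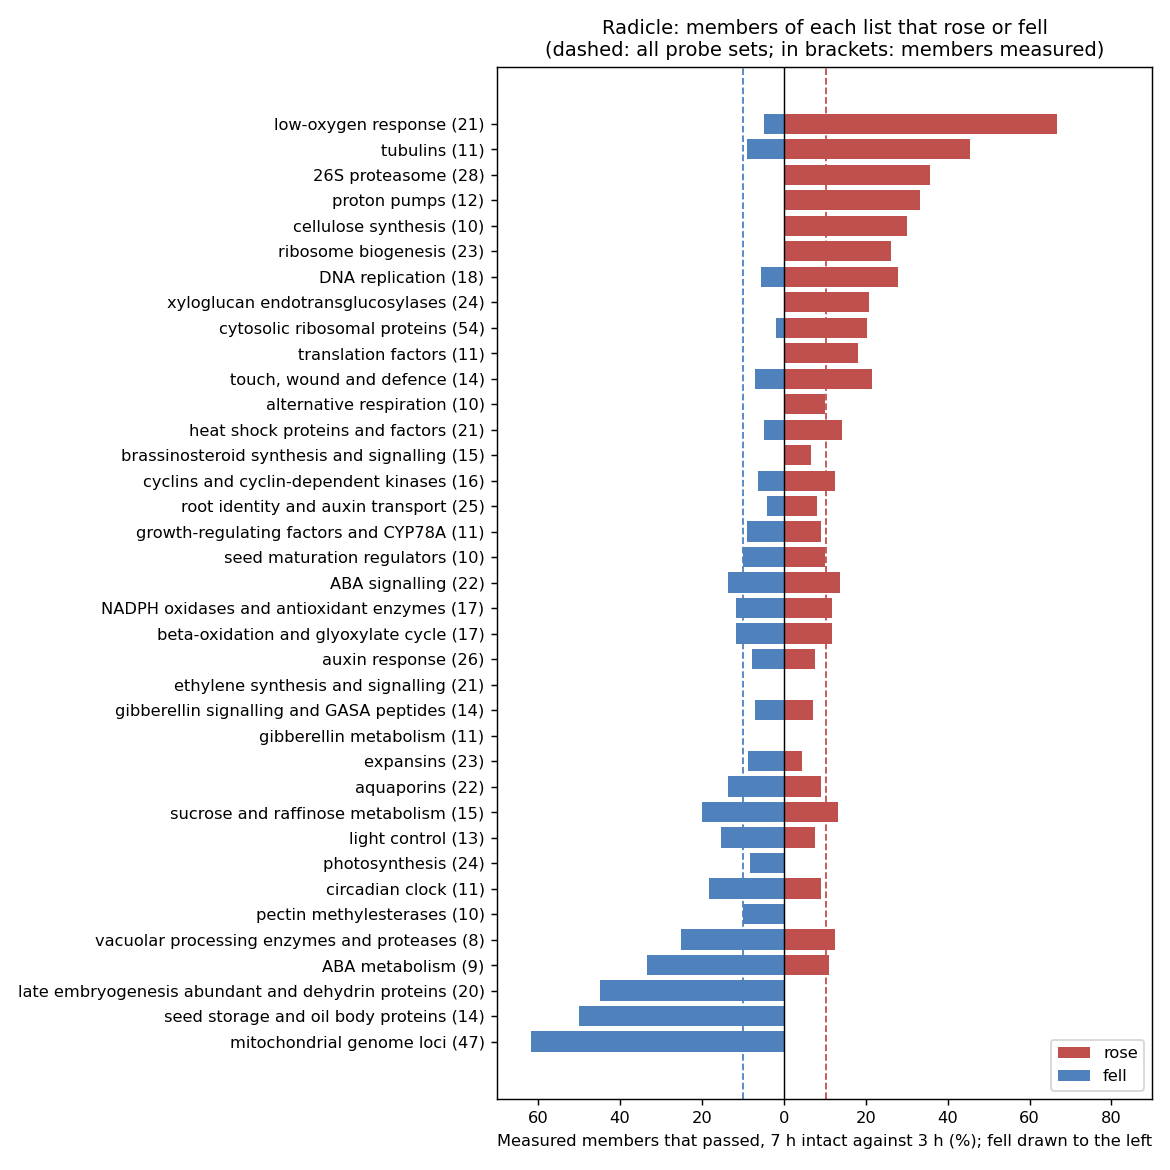
Share of the measured members of each gene list (number in brackets) that rose (right, red) or fell (left, blue) in radicle from 3 h to intact 7 h, in percent, with the shares of all probe sets as dashed lines at 10.3% and 10.1%. Low-oxygen genes, a list chosen after the values were seen, and tubulins lead to the right, and mitochondrial loci and seed storage proteins to the left.

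The interval was also divided at 5 h. From 3 h to 5 h 894 probe sets passed (6.43%), 494 higher (3.56%) and 400 lower (2.88%), and from 5 h to intact 7 h 352 passed (2.53%), 171 higher (1.23%) and 181 lower (1.3%). The difference between these counts was not tested, and the 2 comparisons share the 5 h arrays. Without replicate 3 at 5 h the order of the counts turned, 405 before 5 h and 426 after it. The first count was 492 and 573 without replicate 2 at 5 h and replicate 1 at 3 h. The second was 109 without replicate 1 at 5 h, 122 without replicate 4 and 217 without replicate 1 at 7 h. HRE2 rose by 1.89 before 5 h and was 0.62 higher at 7 h than at 5 h, which did not pass. ADH1 showed the reverse order, 0.33 (not passing) and then 1.66, and FER1 likewise, 0.55 (not passing) and then 2.18. RAB18 was 0.35 lower at 5 h, which did not pass, and fell by 1.13 after it. XTH16 rose by 2.27 after 5 h, SUS1 rose in both parts (1.38 and 1.26). SIP2;1 also did (1.56 and 1.09), its second call being lost without replicate 1 at 5 h (0.84 to 1.24 over 8 fits).

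Whether the 5 h level lay on the straight line between 3 h and 7 h was tested by setting it against the mean of both. Of 13895 probe sets 55 passed (0.396%), 50 above the line (0.36%) and 5 below (0.036%). ETR2 (AT3G23150), an ethylene receptor, read 4.13, 5.75, 3.90 and 5.29 at 3 h, 5.60, 6.11, 5.80 and 6.61 at 5 h, and 5.27, 5.49, 5.25 and 5.42 at 7 h. It lay 0.97 ± 0.21 above the line (adjusted p = 0.01), with 3 h arrays spread widely. RGL2 was at 8.36 ± 0.53, 9.15 ± 0.16 and 8.55 ± 0.12, which is 0.69 ± 0.17 above (adjusted p = 0.041). The ABA receptor PYR1 (AT4G17870) lay 0.53 ± 0.13 above, HSP15.7 0.98 ± 0.23 above, and PCK1 0.71 ± 0.15 below, at -0.71 (adjusted p = 0.0091). LBD41 (AT3G02550), a factor of the low-oxygen list, went from 4.53 ± 0.53 through 6.64 ± 0.19 to 6.03 ± 0.42 and lay 1.36 ± 0.27 above.

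This midpoint result was fragile. On the 12 arrays fitted alone none passed in limma, where 1129 had an unadjusted p under 0.05, against 1144 with all arrays in the fit. Without the replicate 4 arrays of the 3 groups 6 passed, and leaving out 1 array gave 20 (replicate 3 at 5 h), 28 (replicate 4 at 7 h) or 29 (replicate 2 at 5 h) at the lowest. ETR2 was lost without replicate 2 or 4 at 5 h, PCK1 without replicate 2 or 3 at 5 h, and HSP15.7 without replicate 1, 2 or 3 at 5 h or replicate 4 at 7 h. RGL2 and PYR1 were each lost in 9 of the 12 fits, among them those without any 1 of the 5 h arrays or without replicate 2, 3 or 4 at 7 h, replicate 1 at 3 h, and for RGL2 replicate 3 or for PYR1 replicate 4 at 3 h. LBD41 passed in all 12 (1.23 to 1.47). Their values stayed between 0.61 and 0.79 for RGL2, 0.48 and 0.58 for PYR1, 0.85 and 1.09 for HSP15.7, 0.77 and 1.13 for ETR2, and -0.84 and -0.62 for PCK1.

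**Figure D4:**
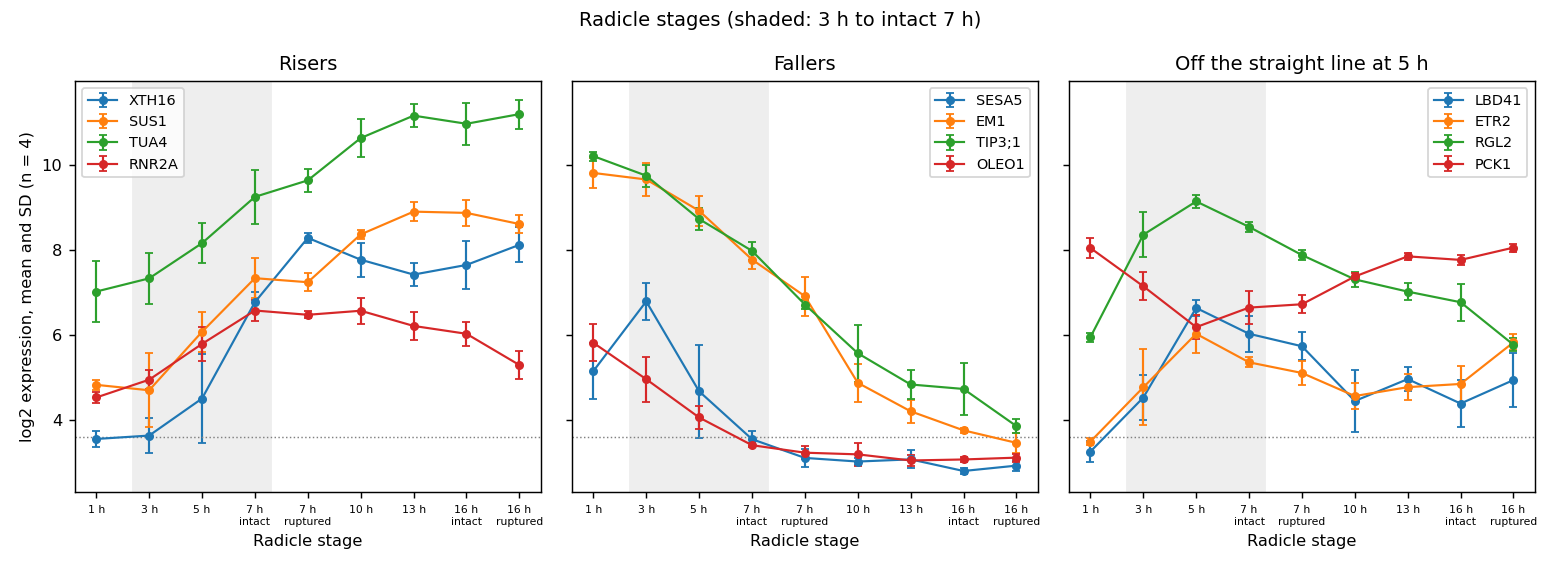
Mean log2 expression with SD (n = 4) of 12 genes over the 9 radicle stages from 1 h to 16 h, with 3 h to intact 7 h shaded and the brightness limit dotted. SESA5 is at 6.79 at 3 h and 3.55 at intact 7 h, XTH16 is at 8.29 in radicles of 7 h seeds with ruptured testa, and RGL2 is highest at 5 h. Intact and ruptured groups of one hour are different seeds.

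The stages on both sides place these changes in the longer course. XTH16 stood at 3.55 ± 0.20 at 1 h and at 8.29 ± 0.11 in 7 h seeds whose testa had ruptured, XTH4 at 3.48 ± 0.11 and 7.08 ± 0.08. XTH8 and XTH33 (AT1G10550) were at 4.55 ± 0.26 and 4.39 ± 0.27 in intact 7 h seeds. In the ruptured 7 h seeds, which are other seeds of the same hour, they were at 6.68 ± 0.34 and 6.42 ± 0.23. TIP3;1 went from 10.22 ± 0.11 at 1 h to 6.72 ± 0.11 in the ruptured 7 h seeds. SESA5 was higher at 3 h (6.79 ± 0.44) than at 1 h (5.15 ± 0.66), whereas CRA1 fell over the same time, from 7.36 ± 0.18 to 5.95 ± 0.87, in means given here without a test.

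The same hours in other tissues show where the radicle differed. In micropylar endosperm 3779 probe sets passed between 3 h and intact 7 h (27.2%), in cotyledons 1887 (13.6%) and in non-micropylar endosperm 4436 (31.9%). The higher and lower shares were 13.1% and 14.1% in micropylar endosperm, 6.61% and 6.97% in cotyledons, and 16% and 15.9% in non-micropylar endosperm. With micropylar endosperm the radicle had 783 risers in common (54.9% of the radicle's, 43.0% of the endosperm's) and 564 fallers (40.3% and 28.8%). Another 23 rose in radicle and fell in this endosperm, and 9 did the reverse. With cotyledons it had 507 risers (35.5% and 55.2%) and 397 fallers (28.4% and 41.0%) in common, and 6 passed in each of the opposite combinations. The numbers in common were largest with non-micropylar endosperm, 859 risers (60.2% and 38.6%) and 643 fallers (46.0% and 29.1%). There 21 rose in radicle and fell in that endosperm, and 16 did the reverse. These comparisons share no arrays, although all 4 tissues came through 1 normalization.

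Testing the difference of the changes directly, 274 probe sets differed from cotyledons (1.97%), 131 with the more positive change in radicle (0.943%) and 143 with the less positive one (1.03%). SUS1 rose by 2.09 ± 0.35 more in radicle than in cotyledons (adjusted p = 7.6e-05), where it was at 4.02 and 4.57, and SUS4 by 2.16 ± 0.37 more. XTH4, at 3.59 and 3.6 in cotyledons, rose by 2.05 ± 0.30 more, and SIP2;1, under the limit in cotyledons at 3 h, by 1.61 ± 0.32 more, which is then an upper bound. ADH1 rose by 1.83 ± 0.34 more (adjusted p = 0.00062) and FER1 by 2.57 ± 0.54 more. Cotyledons exceeded radicle for HY5 (AT5G11260), a factor of light-grown development, by 1.22 ± 0.29 and for EXPA10 (AT1G26770), an expansin, by 1.16 ± 0.29. SESA5 fell at least 1.80 ± 0.50 further in radicle, at -1.80 (adjusted p = 0.038), a call lost in 7 of the 16 fits that left out 1 array, those without replicate 1 or 3 at 3 h or replicate 1, 3 or 4 at 7 h of radicle, or without replicate 3 of the cotyledons at either time (-1.95 to -1.44). The HY5 call was lost without replicate 4 of radicle at 7 h (-1.53 to -0.95) and that of EXPA10 without replicate 3 at 3 h (-1.44 to -1.05). The count of 274 was 664 without replicate 4 of the 7 h cotyledons, 171 without replicate 3 at 3 h of either tissue, and 40 on the 16 arrays alone, without SUS1, HY5, EXPA10 and SESA5.

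Against micropylar endosperm 808 probe sets differed (5.82%), 485 more positive (3.49%) and 323 less positive (2.32%) in radicle. SUS1 rose by 2.18 ± 0.35 more in radicle, its endosperm level being high already at 3 h (7.04). SOM rose in radicle and fell by 1.44 in the endosperm, a difference of 2.2 ± 0.27 (adjusted p = 6.2e-09). LOX1 (AT1G55020), a lipoxygenase, differed likewise by 1.98 ± 0.49, and GOLS1, which fell in both, by 1.92 ± 0.38. Wall and growth genes of the endosperm cap went the other way: GASA6 (AT1G74670) rose by at least 4.08 in the cap and was at 3.63 and 3.63 in radicle (a difference of at least 4.08 in size, -4.08 ± 0.46). EXPA2 (AT5G05290), an expansin of germinating endosperm, rose by 3.57 in the cap and was at 3.63 and 3.47, the latter under the limit, in radicle (at least 3.73 in size, -3.73 ± 0.44). XTH33 differed by -2.87 ± 0.43. EXPA9 (AT5G02260) differed by -3.32 ± 0.38, with no bound since both radicle levels were under the limit. XTH16 rose by 3.15 in radicle and 3.09 in the cap, a difference of 0.05 ± 0.49 that did not pass. XTH4 rose by 1.52 ± 0.30 more in radicle (adjusted p = 0.00028). This is an upper bound, since its cap level at 3 h was just under the limit. Of 24 xyloglucan endotransglucosylases, XTH4 alone had a more positive change in radicle and 3 had a less positive one. Of 54 ribosomal proteins 46 rose in the cap, and for 14 the radicle's change was less positive and for none more. Heat shock genes were the reverse, 7 of 21 with a more positive change in radicle and none less, HSP23.6 (AT4G25200) by 1.77 ± 0.29 and HSP17.4 (AT3G46230) by 1.15 ± 0.33. The HSP17.4 call was lost without replicate 1 at 3 h or replicate 2 at 7 h of radicle or replicate 1 of the 7 h cap (0.91 to 1.36 over 16 fits). In the cap 1 of the 21 heat shock genes rose and 9 fell, and in radicle 3 rose and 1 fell. Neither HSP23.6 nor HSP17.4 passed between 3 h and 7 h in radicle. Without replicate 1 of the 7 h cap 528 probe sets differed.

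Against non-micropylar endosperm 1327 probe sets differed (9.55%), 716 more positive (5.15%) and 611 less positive (4.4%) in radicle. EXPA2 rose by 4.90 there (at least 5.06 in size, -5.06 ± 0.44), XTH33 by 4.26 (-3.70 ± 0.43) and EXPA8, which fell in radicle, by 1.42 (-2.30 ± 0.35). GOLS1 fell by 3.32 there (difference 2.55 ± 0.38), and FER1, which rose in radicle, fell by 1.19 (3.92 ± 0.54, adjusted p = 6.8e-08). HSP15.7 differed by 2.02 ± 0.37 and HAI3 (AT2G29380), a phosphatase of ABA signalling, by 1.82 ± 0.42. BR6OX2 (AT3G30180), which makes brassinolide in Arabidopsis, rose by 2.13 there and was under the brightness limit in radicle. Less positive in radicle were 20 of 54 ribosomal proteins, 7 of 28 proteasome subunits and 8 of 17 genes of beta-oxidation and the glyoxylate cycle, with 1, 0 and 2 more positive. PIN2, under the limit there at both times, rose by 1.55 ± 0.40 more in radicle (adjusted p = 0.0056), a size that is no bound. Its differences of 0.92 from the cap and 1.21 from cotyledons did not pass. Both are upper bounds, since PIN2 was under the limit at 3 h in these tissues.

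**Figure D5:**
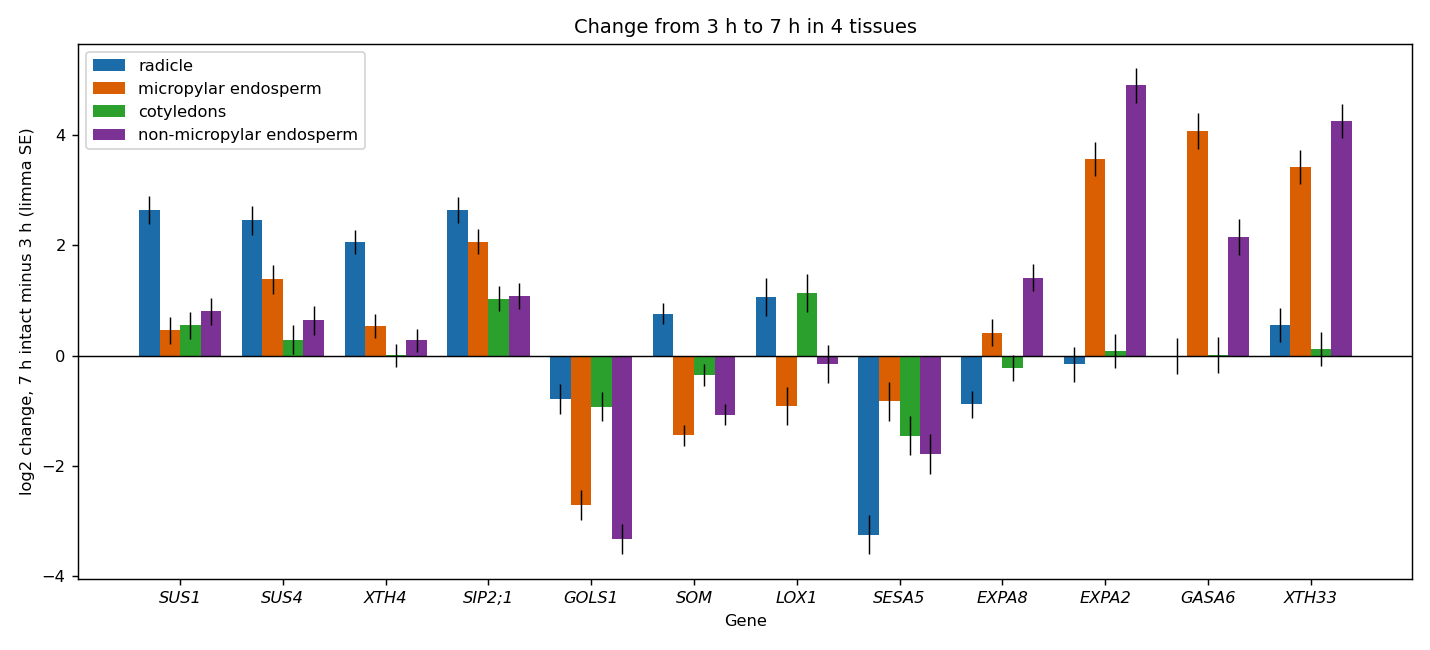
Log2 change from 3 h to intact 7 h of 12 genes in radicle, micropylar endosperm, cotyledons and non-micropylar endosperm (bars, with limma standard errors). SUS1 and XTH4 are highest in radicle, and EXPA2, GASA6 and XTH33 rise in the 2 endosperm tissues but not past the threshold in radicle.

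The low-oxygen list was chosen on its radicle values, so its radicle count is not set against those of the other tissues. In cotyledons 13 of its 21 genes rose and none fell, in micropylar endosperm 7 rose and 2 fell, and in non-micropylar endosperm 9 rose and 2 fell. Of all probe sets 6.61% rose and 6.97% fell in cotyledons, 13.1% and 14.1% in micropylar endosperm, and 16% and 15.9% in non-micropylar endosperm. CML38 (AT1G76650), a calmodulin-like protein, rose by 1.28 in radicle and 2.00 in cotyledons and did not pass in the 2 endosperm tissues (0.17 and -0.48). Against micropylar endosperm, the radicle's change was more positive for 4 of the 21 and less for none. Over all probe sets these shares were 3.49% and 2.32%. Against cotyledons it was more for 3 and less for 2 (all probe sets 0.943% and 1.03%). Against non-micropylar endosperm it was more for 8 and less for none (all probe sets 5.15% and 4.4%). The radicle arrays that guided the choice of the list also enter these differences. The counts can therefore lean towards the radicle and are no support for a radicle trait. HRE2 differed from micropylar endosperm by 0.95 ± 0.29 (adjusted p = 0.032), a call lost in 9 of the 16 fits that left out 1 array (0.74 to 1.22). HRE2 rose in all 4 tissues, by 1.57 to 2.86 outside the radicle. PGB1 rose in all 4, by 2.05 to 2.81 outside the radicle, and none of its 3 differences passed.

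A panel of 23 genes was reported whatever its result. Of these 4 rose (PIN2, MLS, XTH4 and TUA2), CYCD4;1 passed as higher, 5 fell (EM1, CRA1, OLEO1, ICL and TIP3;1) and 13 did not pass, with values of -0.53 to 0.41. CYCD4;1 (AT5G65420), a cyclin of the first divisions in the root tip, stayed under the brightness limit in all 3 groups, so its 0.29 ± 0.10 is no bound, and its call was lost without replicate 2 or 3 at 3 h or replicate 3 at 7 h (0.19 to 0.34 over the 8 fits). The nucleolar protein NUC1 (AT1G48920) was at 5.39 ± 0.15 and 5.51 ± 0.17, and HSP17.4 at 6.89 ± 0.42 and 6.56 ± 0.40.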

How the data were processed

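Each array measured RNA of one pooled tissue sample. The deposited values are log2 expression, made by the authors with RMA in affy, per the submitters' processing notes; the sources used here give neither a tool version nor an annotation build. The table holds 13895 probe sets, named by Arabidopsis locus, on 107 arrays in 27 groups; array medians were 4.04 to 4.17. Symbols and roles were added from knowledge of the Arabidopsis loci, since the files give codes only. No sequence is printed.

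A mean per group was fitted over all 107 arrays with limma 3.58.1 (R 4.3.3) and eBayes, and p-values were adjusted by Benjamini-Hochberg over all 13895 probe sets, with 0.05 as the threshold. The brightness limit is the 25th percentile of all group means. The fit was tested on simulated data, which cannot show whether the spread of the real arrays meets its assumptions. The number of arrays, 4 per group (3 in 1 dry seed group outside these comparisons), limits the precision. Of 807 listed loci 629 were measured in 39 lists. The members and lists were chosen with earlier results of these data known, and the low-oxygen and ferritin lists after their changes had been seen. The genes named are the 15 listed risers and 15 fallers with the largest change among those that passed with no overlap of the 3 h and 7 h arrays, up to 4 passing members per list by size of change, the 2 largest risers and fallers in no list, the 5 largest passing listed loci per direction at the midpoint and in each tissue comparison, and a panel of 23. XTH9, TUA1, PIP1;2, CDT1A, PAP85 and genes given with a 2nd comparison were chosen after their values were seen. Alternatives were another moderation, a filter on dim probe sets, quantile normalization, other centring, smaller sets of arrays, array weights, a replicate block, each array left out, and, chosen after seeing the data, the replicate 4 arrays of the 3 radicle groups left out.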

Additional observations from a re-analysis of the deposited data

Results flagged for a closer look

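In 34 of 495 tests of a named gene in a group of 4 radicle arrays (6.87%), the lowest or highest array stood apart: its gap to the nearest array, divided by the range of the group, was over Dixon's 95% critical value for 4 samples. Chance gives about 1 in 20 such results. Replicate 1 at 5 h had 6 of them and replicate 4 at intact 7 h had 5, and no explanation was tested. The ratio is given in brackets after each gene. Replicate 1 at 3 h stood apart for gammaVPE (0.842), PER1 (0.88) and PFK6 (0.893). Replicate 2 at 3 h stood apart for ARF16 (0.914), PLT2 (0.936) and FER4 (0.93). Replicate 3 at 3 h stood apart for RNR2A (0.861), EXPA13 (0.966) and PCO1 (0.915). Replicate 4 at 3 h stood apart for PRR7 (0.838) and HRA1 (0.891). Replicate 1 at 5 h stood apart for PIN2 (0.887), XTH5 (0.861), SESA5 (0.83), KOR1 (0.921), TUB1 (0.883) and GA3ox1 (0.911). Replicate 2 at 5 h stood apart for GH3.6 (0.867), HSP70B (0.944) and RVE8 (0.908). Replicate 3 at 5 h stood apart for PYR1 (0.873). Replicate 4 at 5 h stood apart for AUX1 (0.94), HSC70-1 (0.833) and PRR3 (0.942). Replicate 1 at intact 7 h stood apart for LDH1 (0.952). Replicate 2 at intact 7 h stood apart for IAA4 (0.911) and SRO5 (0.933). Replicate 3 at intact 7 h stood apart for TT12 (0.915) and LBD41 (0.835). Replicate 4 at intact 7 h stood apart for RNR1 (0.897), PAE1 (0.855), gammaVPE (0.938), MCM2 (0.848) and FER1 (0.836).

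The change from 3 h to intact 7 h differed between radicle and another tissue, by an interaction term in limma, for the named genes that follow, given as radicle change minus the other tissue's change on the log2 scale. Against micropylar endosperm, the difference was 2.18 for SUS1, -2.42 for SESA5, 1.92 for GOLS1, 2.2 for SOM, 1.98 for LOX1, 1.77 for HSP23.6, -4.08 for GASA6, -3.73 for EXPA2, -3.32 for EXPA9 and -2.87 for XTH33. Against cotyledons, the difference was 1.61 for SIP2;1, 2.09 for SUS1, 2.16 for SUS4, 2.05 for XTH4, -1.80 for SESA5, 1.49 for CAT3, -1.22 for HY5, -1.16 for EXPA10 and -0.96 for PYL4. Against non-micropylar endosperm, the difference was 1.83 for SUS1, -2.30 for EXPA8, 2.55 for GOLS1, 2.02 for HSP15.7, 1.83 for SOM, -2.16 for GASA6, -5.06 for EXPA2, -3.70 for XTH33, 1.82 for HAI3 and -2.11 for BR6OX2. SESA5 and EXPA9 against micropylar endosperm and BR6OX2 are no bounds, since levels on both sides of the difference or both radicle levels were under the brightness limit.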

How the results depend on the processing

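None of the values rerun under the alternatives that had passed changed sign. Values in other tissues alone were not rerun, and XTH9, TUA1, PIP1;2, CDT1A, PAP85 and values of a 2nd comparison were rerun, if at all, only with 1 array left out. Of 131 named genes that passed from 3 h to intact 7 h, 84 kept their call in every fit run, 39 lost it when at least 1 array was left out, and 0 reversed. Fitted on the arrays of the groups compared alone, 1867 probe sets passed between 3 h and intact 7 h, 104 from 3 h to 5 h, 32 from 5 h to 7 h, 0 at the midpoint (1129 at an unadjusted p under 0.05) and 40 against cotyledons; these fits have fewer residual degrees of freedom, and 37 of the 131 genes lost their call in the first of them. Array weights gave 536 from 5 h to 7 h, 129 at the midpoint, 1453 against micropylar endosperm and 2168 against non-micropylar endosperm. Without the replicate 4 arrays of the 3 radicle groups the counts were 578 from 3 h to 5 h, 64 from 5 h to 7 h, 6 at the midpoint and 174 against cotyledons. The cause of these shifts was not tested. Leaving out 1 array at a time gave 2319 to 2861 from 3 h to 7 h, 405 to 997 from 3 h to 5 h, 109 to 426 from 5 h to 7 h and 20 to 68 at the midpoint. The tissue differences ranged over 528 to 900 for micropylar endosperm, 171 to 664 for cotyledons and 1030 to 1465 for non-micropylar endosperm. With the replicate number as a block 2810 probe sets passed from 3 h to 7 h and 2 named genes lost their call. Deviations of same-numbered arrays correlated at r = -0.29 to 0.44 between 3 h and 7 h, -0.08 to 0.38 between 3 h and 5 h and 0.07 to 0.40 between 5 h and 7 h. No pairing was over 0.1 for every number, so the numbers were not taken to pair the arrays, although replicate 4 was at 0.38 to 0.44 throughout. In 14 of 24 matches an array correlated best with its own number, a hint from the data and not the design. Levels under the brightness limit give a bound or none.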
